A study of Mus musculus with 4 samples.

Results

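The expression of 7 genes was described across brain immune cells of young and aged mice after cardiac arrest. The genes were the S100 genes S100a8, S100a9, S100a4, S100a6, S100a10 and S100a11 and the annexin gene Anxa1, chosen by symbol, and all 7 were found among the 32285 genes of the files. The cells came from the brains of wild-type C57Bl/6 mice. Aged mice were 18 to 20 months old and young mice 3 to 6 months old. Cardiac arrest (CA) was brought on with potassium chloride and followed by resuscitation, and sham mice had the operation without the arrest. On day 3 the mice were perfused, brains were dissociated by mechanical means, a Percoll gradient enriched the immune fraction, and cells with the leukocyte surface protein CD45 were sorted for droplet-based single-cell RNA sequencing of transcript 3′ ends. There were 4 libraries, aged CA, aged sham, young CA and young sham. Each library pooled 3 mice with no mark of which cell came from which mouse, and a group is therefore a single sample. No difference between groups could be tested, and intervals given here cover counting error only.

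S100 proteins are small calcium-binding proteins that mostly work as dimers, and annexin A1 binds phospholipid membranes when calcium rises. S100A8 and S100A9 pair as calprotectin, a major protein of the neutrophil cytosol that sequesters zinc and manganese and, once released, acts as an alarm signal through TLR4. S100A4 binds non-muscle myosin and is abundant in motile cells, S100A6 (calcyclin) is linked to proliferation and stress, S100A10 is held in a complex with annexin A2 that binds plasminogen at the cell surface, and S100A11 can bind annexin A1. Annexin A1 is best known from neutrophils and monocytes, where it limits leukocyte recruitment through formyl peptide receptors.

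All 6 S100 genes lie on mouse chromosome 3, in 2 groups. In GENCODE M21 (GRCm38, of which mm10 is another name), S100a4 (ENSMUSG00000001020, chr3:90603771-90606045, plus strand), S100a6 (ENSMUSG00000001025, chr3:90612882-90624181, plus strand), S100a8 (ENSMUSG00000056054, chr3:90668978-90670035, plus strand) and S100a9 (ENSMUSG00000056071, chr3:90692632-90695721, minus strand) lie within 91951 bases. S100a8 and S100a9 are neighbours among the S100 genes, 22596 bases apart, on opposite strands with their ends facing each other. S100a11 (ENSMUSG00000027907, chr3:93520488-93526287, plus strand) lies 2824766 bases beyond S100a9, and S100a10 (ENSMUSG00000041959, chr3:93555080-93564643, plus strand) 28792 bases further. Anxa1 (ENSMUSG00000024659) is on chromosome 19, at chr19:20373428-20390944 on the minus strand. All 7 are protein-coding genes.

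The 250 bases before the start of 5 genes are shown as background, and no result on expression uses them. Of these genes, S100a8, S100a9, S100a6 and Anxa1 were abundant in neutrophils, and S100a4 was not. S100a11 was also abundant there, and its sequence is not printed. The sequences are from RefSeq on GRCm38.p6, written 5′ to 3′ on the strand of the gene, at chr3:90668821-90669070 (plus) for S100a8, chr3:90695722-90695971 (minus) for S100a9, chr3:90612644-90612893 (plus) for S100a6, chr19:20390672-20390921 (minus) for Anxa1 and chr3:90603520-90603769 (plus) for S100a4. RefSeq starts differ from the GENCODE starts given above. By GENCODE, the Anxa1 window lies within the gene, and the S100a8 and S100a6 windows run past the gene start. Distances below are to the RefSeq starts. Capitals mark matches to 4 motifs, searched on both strands.
S100a8: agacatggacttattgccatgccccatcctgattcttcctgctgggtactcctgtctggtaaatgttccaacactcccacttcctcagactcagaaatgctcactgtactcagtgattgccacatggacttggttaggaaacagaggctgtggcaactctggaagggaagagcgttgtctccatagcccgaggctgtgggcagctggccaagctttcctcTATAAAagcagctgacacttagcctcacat
S100a9: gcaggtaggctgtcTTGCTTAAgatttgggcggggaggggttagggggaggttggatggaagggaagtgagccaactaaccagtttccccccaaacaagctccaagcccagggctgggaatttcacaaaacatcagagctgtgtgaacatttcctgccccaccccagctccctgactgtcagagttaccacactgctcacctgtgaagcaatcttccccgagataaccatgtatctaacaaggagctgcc
S100a6: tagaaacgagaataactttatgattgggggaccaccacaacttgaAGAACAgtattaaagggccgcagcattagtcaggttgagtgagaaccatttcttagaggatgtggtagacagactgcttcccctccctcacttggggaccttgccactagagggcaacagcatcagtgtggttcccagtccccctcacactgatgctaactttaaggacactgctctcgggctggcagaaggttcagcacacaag
Anxa1: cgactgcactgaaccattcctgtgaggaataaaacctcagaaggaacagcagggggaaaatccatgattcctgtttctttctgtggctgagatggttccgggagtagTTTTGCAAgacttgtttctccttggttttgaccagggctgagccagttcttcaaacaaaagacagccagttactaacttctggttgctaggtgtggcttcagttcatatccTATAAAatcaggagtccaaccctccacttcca
S100a4: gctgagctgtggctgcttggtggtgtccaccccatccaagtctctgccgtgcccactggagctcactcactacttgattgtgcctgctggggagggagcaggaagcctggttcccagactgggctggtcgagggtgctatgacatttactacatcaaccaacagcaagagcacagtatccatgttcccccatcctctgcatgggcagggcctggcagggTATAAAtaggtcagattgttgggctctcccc

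The motifs were the TATA box core TATAAA, the C/EBP-type TTGCNNAA, the AP-1 motif TGANTCA and the glucocorticoid receptor core AGAACA, and no match overlapped another. RefSeq starts matched 6 of the 7 genes, S100a10 being the exception. S100a8, S100a4 and Anxa1 each held TATAAA, 30, 31 and 32 bases before the start, a motif in 12.4% of 32851 windows of the same length. S100a9 did not hold these letters. Its match was to TTGCNNAA, 236 bases before the start, and Anxa1 had a TTGCNNAA match 143 bases before its start (9.56% of all windows). S100a6 held AGAACA 205 bases before its start (16.1% of windows), and S100a11 held TGANTCA at 136 and at 38 bases (6.75%). A match is a string of letters, and no binding was measured here.

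After filters, 5611 aged CA, 7083 aged sham, 9310 young CA and 8120 young sham cells were kept, with a median of 10308, 3254, 9569 and 5947 unique molecular identifiers (UMIs, counts of captured transcripts) per cell. Ptprc, the CD45 gene, had a UMI in 87.1% of aged CA, 63.8% of aged sham, 84.5% of young CA and 79.0% of young sham cells, against 17.5% to 29.6% of neurons. Cells were put in classes by the summed level of fixed marker genes. Microglia, the resident macrophages of the brain, made up 4536, 5045, 8487 and 7593 cells, neutrophils 80, 369, 27 and 20, and monocytes or macrophages 64, 20, 304 and 17, in the order aged CA, aged sham, young CA and young sham. The aged sham library stood apart. It was the shallowest, held haemoglobin UMIs at 941.6 per 1000000 UMIs against at most 3.09 elsewhere, and 331 of its 369 neutrophil-gated cells also passed the gate for microglial markers, against 7 of 80 in aged CA, 2 of 27 in young CA and 4 of 20 in young sham. From 15 to 32 cell barcodes were shared by each pair of libraries. Levels of S100a8, S100a9, S100a6, S100a11 and Anxa1 in neutrophils are therefore also given for cells under the microglial gate. Other values for neutrophils, such as those of gene lists, cover all gated cells unless the text says otherwise.

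Levels are in CPM, the UMIs of a gene per 1000000 UMIs of the summed cells. UMIs count transcript 3′ ends and were not divided by transcript length. Over all kept cells, S100a8 stood at 2955 CPM in aged CA, 2136 in aged sham, 391 in young CA and 495 in young sham, and S100a9 at 2555, 2356, 393 and 556 CPM in the same order. Both were higher in the aged libraries at either treatment, and lower in young CA than in young sham. S100a4 stood at 82.2 CPM in aged CA, 58.0 in aged sham, 159.9 in young CA and 25.3 in young sham, S100a6 at 395, 167, 187 and 41.4 CPM, and S100a11 at 128, 91.4, 99.7 and 26.9 CPM. S100a10 stood at 40.9, 60.1, 60.6 and 26.5 CPM and Anxa1 at 64.2, 49.7, 21.2 and 12.3 CPM. Young sham was lowest for 5 of the 7 genes. S100a8 and S100a9 were lowest in young CA.

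Counted by a size of 2-fold or more on log2(CPM + 1), CA over sham was higher for 4 of the 7 genes in young libraries (S100a4, S100a6, S100a10 and S100a11), where 5.82% of all measured genes were, and for 1 of 7 in aged libraries (S100a6), where 4.28% were. A gene counted as measured with at least 10 UMIs and 1 CPM in either library. Aged over young was higher for all 7 in sham (3.67% of all genes) and for 4 of 7 after CA (8.70%), namely S100a8, S100a9, S100a6 and Anxa1. In these whole-library levels, fewer cells of a class and less RNA per cell cannot be told apart, so levels within classes follow.

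**Figure D1:**
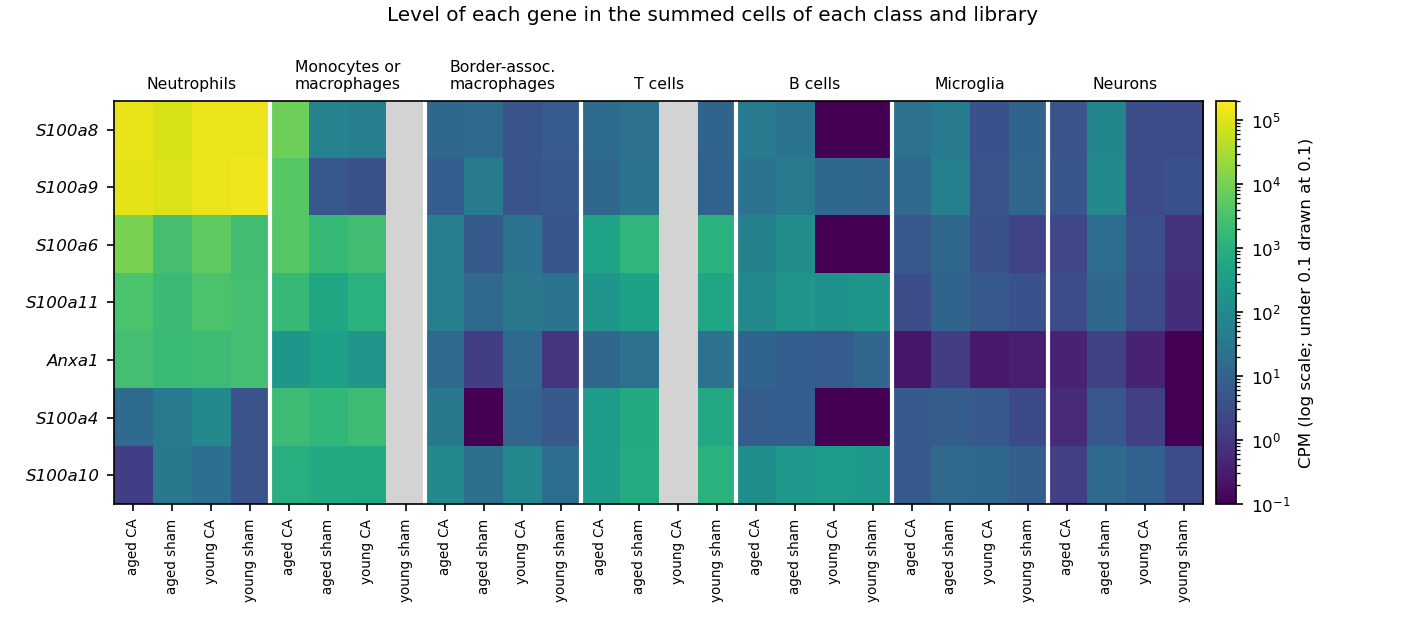
Level of each gene (rows) in the summed cells of each class, with the 4 libraries of a class side by side. Colour is CPM on a log scale, levels under 0.1 CPM are drawn at 0.1, and grey marks classes with under 20 cells (17 monocytes in young sham, 18 T cells in young CA). S100a8 and S100a9 stand at 83280 CPM or more in neutrophils of every library, while S100a4 and S100a10 stand under 100 CPM there.

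**Figure D2:**
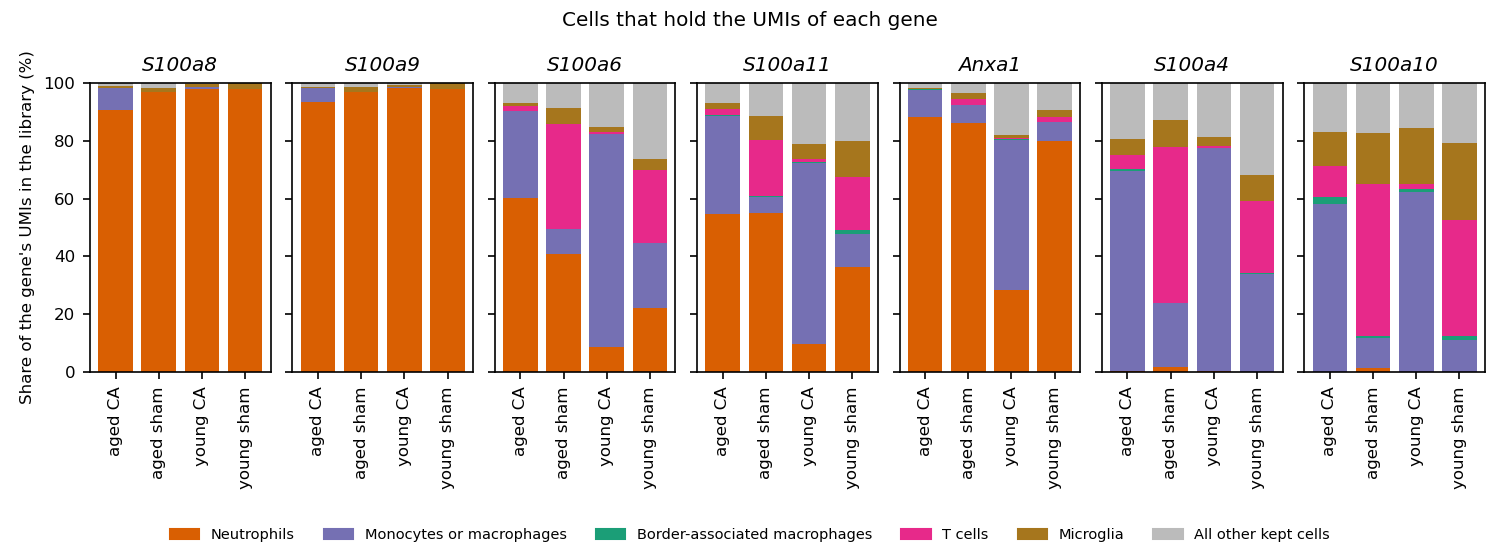
Share of each gene's UMIs (%, vertical axis) that came from each class of cells, per library. Neutrophil-gated cells hold over 90% of S100a8 and S100a9 in all 4 libraries. In aged sham 331 of the 369 neutrophil-gated cells also passed the microglial gate. Monocytes or macrophages hold 77.3% of S100a4 in young CA against 33.7% in young sham.

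S100a8 and S100a9 UMIs lay mostly in neutrophil-gated cells in every library. Neutrophil-gated cells, which were 1.43% of aged CA, 5.21% of aged sham, 0.290% of young CA and 0.246% of young sham cells, held 92.05% (95% exact binomial interval 91.96 to 92.14), 96.96% (96.88 to 97.03), 98.25% (98.15 to 98.34) and 98.01% (97.90 to 98.11) of the S100a8 and S100a9 UMIs. The marker genes of the gate do not include either gene. Counting only cells under the microglial gate as neutrophils, the share was 86.36% in aged CA, 60.90% in aged sham, 97.86% in young CA and 97.84% in young sham. In all neutrophil-gated cells S100a8 stood at 125030 CPM in aged CA, 83280 in aged sham, 129936 in young CA and 127332 in young sham. S100a9 stood at 111237, 91717, 131304 and 143119 CPM. The aged sham value was the lowest for both.

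The low aged sham value went with microglial markers in the same barcodes. Together the pair made up a median of 23.6% of a neutrophil's UMIs in aged CA, 8.70% in aged sham, 26.3% in young CA and 17.4% in young sham. Among cells under the microglial gate the medians were 25.2% of UMIs in aged CA (73 cells), 24.5% in aged sham (38 cells), 26.8% in young CA (25 cells) and 23.4% in young sham (16 cells). S100a8 then stood at 137290 CPM in aged CA, 133042 in aged sham, 130747 in young CA and 129323 in young sham, so the 4 libraries spanned 129323 to 137290 CPM. The 331 aged sham cells over the microglial gate had a median of 8.06% and of 1473 UMIs per cell, against 8293 UMIs for the 38 cells under it. S100a9 in cells under the gate spanned 123858 CPM in aged CA to 145463 in young sham. The number of neutrophils caught differed far more between libraries than these levels did.

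**Figure D3:**
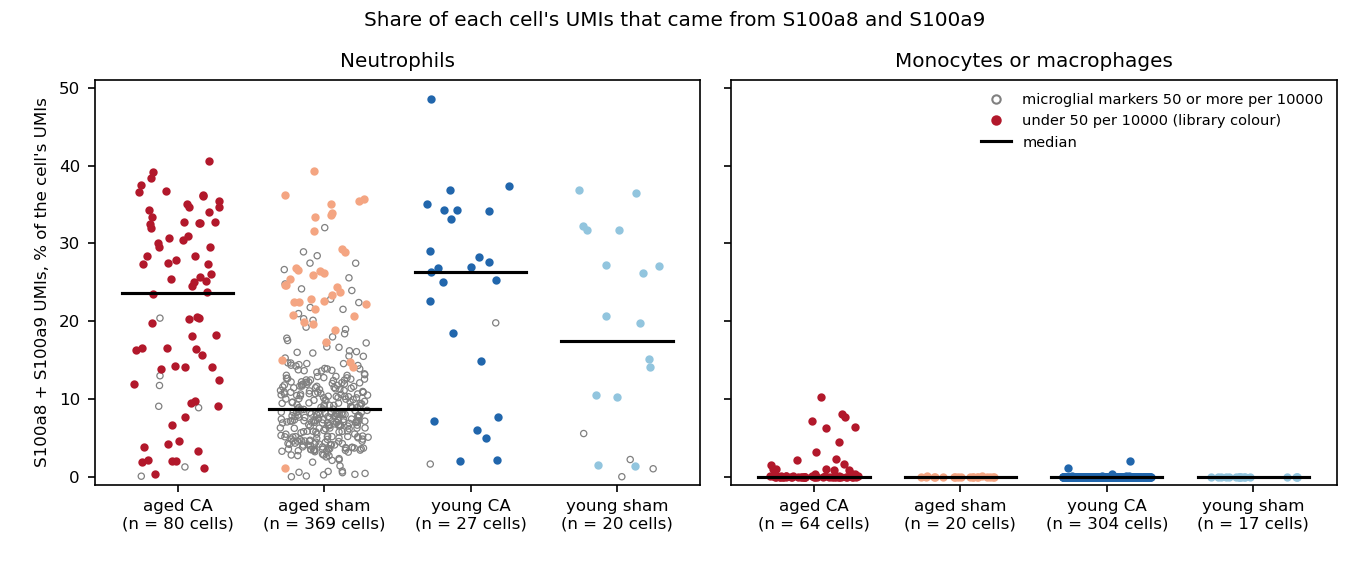
Share of each cell's UMIs (%, vertical axis) from S100a8 and S100a9 together, 1 point per cell, in neutrophil-gated cells (left) and cells in the monocyte or macrophage gate (right). Open grey circles are cells with 50 or more microglial marker UMIs per 10000, filled circles cells under that level, and bars are medians over all cells of the library. The aged sham neutrophils fall mostly under 20%, with open circles, and a group of aged CA monocytes reaches up to 10.2%.

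The balance of the pair differed by library. The ratio of S100a8 to S100a9 UMIs in neutrophils was 1.124 in aged CA (95% interval 1.116 to 1.132), 0.908 in aged sham (0.900 to 0.916), 0.990 in young CA (0.976 to 1.004) and 0.890 in young sham (0.876 to 0.903). It was seen cell by cell. S100a8 outnumbered S100a9 in 59 of 80 neutrophils of aged CA, 80 of 369 of aged sham, 12 of 27 of young CA and 3 of 20 of young sham. In cells under the microglial gate the counts were 54 of 73, 4 of 38, 12 of 25 and 0 of 16. The share was higher in CA than in sham at either age, and the ratio compares UMIs of 2 genes that may be captured with unequal efficiency.

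S100a6 was higher in CA than in sham neutrophils at both ages, by more than S100a8, S100a9, S100a11 or Anxa1, the other genes abundant there. It stood at 11069 CPM in aged CA, 2736 in aged sham, 5495 in young CA and 2404 in young sham neutrophils. CA over sham was 4.05-fold in aged (3.89 to 4.21) and 2.29-fold in young (2.08 to 2.51), and aged over young after CA was 2.01-fold (1.91 to 2.12). The median cell had 10284 CPM in aged CA, 1565 in aged sham, 3777 in young CA and 503 in young sham, with the lowest cell at 0 in each library. Single cells overlapped between libraries, reaching 26557 CPM in aged CA and 14659 in aged sham. In cells under the microglial gate S100a6 stood at 11882 CPM in aged CA, 3969 in aged sham, 5459 in young CA and 2447 in young sham, and the order of the libraries was the same. Monocyte markers in neutrophil-gated cells summed to 82.5 UMIs per 10000 in aged CA (8 of 10 genes seen; Vcan and Ace at 0), 35.8 in aged sham (9 of 10; Ace at 0), 80.2 in young CA (8 of 10; Vcan and Ace at 0) and 74.2 in young sham (4 of 10; Ccr2, F10, Vcan, Ms4a4c, Ms4a6c and Ace at 0). Their part in the S100a6 ratios was not tested.

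Transcripts of annexin A1 and its S100 partner S100A11 were also abundant in neutrophils, with smaller differences. S100a11 stood at 3253 CPM in aged CA, 2022 in aged sham, 3305 in young CA and 2564 in young sham neutrophils. Anxa1 stood at 2644, 1723, 2045 and 2596 CPM in that order. In cells under the microglial gate Anxa1 was at 2937 CPM in aged CA, 2797 in aged sham, 2044 in young CA and 2638 in young sham. There S100a11 was at 3529, 2898, 3300 and 2609 CPM in the same order. The CA to sham ratio of Anxa1 was 1.53 in aged (1.45 to 1.62) and 0.788 in young (0.704 to 0.881) over all neutrophil-gated cells. Neutrophils held 88.4% of all Anxa1 UMIs in aged CA, 86.3% in aged sham and 80.1% in young sham, but 28.4% in young CA, where monocytes or macrophages held 52.0%. Of the S100a11 UMIs they held 4506 of 8243 in aged CA and 2142 of 3890 in aged sham. In young libraries they held 986 of 10091 in CA and 641 of 1766 in sham. Cells under the microglial gate held 1172 of the 2115 Anxa1 and 1214 of the 3890 S100a11 UMIs of aged sham. In aged CA such cells held 3454 of 4141 and 4150 of 8243.

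S100a4 and S100a10 were nearly missing from neutrophils. S100a10 had 2 UMIs in aged CA, 38 in aged sham, 6 in young CA and 1 in young sham neutrophils, at most 35.9 CPM. S100a4 had 22, 40, 27 and 1 UMIs, at most 90.5 CPM, and all 27 UMIs of young CA came from a single cell. Counted by size, 2 of 6 measured genes were higher in CA than in sham in young neutrophils (S100a6 and, through that cell, S100a4), where 11.4% of all genes were, and 0 of 6 were lower (8.89%). In aged neutrophils 1 of 7 was higher (S100a6, against 6.66% of all genes), and 2 of 7 were lower (S100a4 and S100a10, against 25.1%). S100a4 in young neutrophils counted as measured only through CA, and S100a10 in aged neutrophils only through sham.

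Granule and alarm genes were described in the same cells. Of 12 granule and alarm genes, 10 were measured in young neutrophils, with 2 at least 2-fold higher and 2 at least 2-fold lower in CA than in sham, and 11 in aged neutrophils, with 1 higher and 3 lower. Over all genes at 10 CPM or more, 18.3% were higher and 16.01% lower in young, and 6.23% higher and 25.2% lower in aged neutrophils, near the shares of the list. The medians on the log2 scale were -0.28 in young and 0.02 in aged, beside 0.02 and -0.30 over all those genes. Of these 12 genes, 6 are also markers of the neutrophil gate (Retnlg, Mmp9, Mmp8, Camp, Ltf and Ngp), so these values only describe the gated cells. Picked after its values were seen, Lcn2, which is no marker of the gate, stood at 9389 CPM in aged CA, 5883 in aged sham, 8150 in young CA and 10175 in young sham. Among the gate markers, Retnlg, a resistin-like gene of mature neutrophils, stood at 19062, 6449, 23748 and 5920 CPM, and Ltf, the gene of the secondary granule protein lactoferrin, at 1147, 4245, 3021 and 9411 CPM. Retnlg was higher and Ltf lower in CA at both ages, beside the higher S100a6. These genes were also picked with their values known, the remaining gate markers of the list are not given, and the list as a whole was mixed. Whether the mix of maturation stages accounts for S100a6 was not tested.

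Monocytes or macrophages were rich in S100a4, S100a6, S100a10 and S100a11. Young sham had only 17 such cells, under the minimum of 20, and is left out. S100a4 stood at 2131 CPM in aged CA, 1502 in aged sham and 2139 in young CA. S100a10 stood at 887, 721 and 654 CPM in that order. Both stood under 100 CPM in neutrophils. S100a6 stood at 4458 CPM in aged CA, 1706 in aged sham and 2389 in young CA monocytes, and S100a11 at 1629, 590 and 1081 CPM. Anxa1 was lower than in neutrophils, at 221, 362 and 191 CPM, and 40.6% of its UMIs in aged sham came from 1 cell.

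In aged monocytes 4 of 7 genes were at least 2-fold higher in CA than in sham, against 11.3% of all measured genes. They were S100a6 at 2.61-fold (2.41 to 2.84), S100a11 at 2.76-fold (2.40 to 3.18), S100a8 and S100a9. Of these, S100a9 counted as measured only through aged CA. S100a4 was at 1.42-fold (1.30 to 1.55) and S100a10 at 1.23-fold (1.08 to 1.41). The aged sham side rests on 20 cells. Neutrophil markers in the class summed to 7.22 UMIs per 10000 in aged CA (10 of 12 genes seen; Camp and Ltf at 0) and 1.52 in aged sham (6 of 12; Retnlg, Mmp9, Ly6g, Il1r2, Ltf and Stfa2l1 at 0), and their part in these ratios was not tested. With 304 cells in young CA, the class held 77.3% of S100a4, 73.7% of S100a6, 62.3% of S100a10 and 62.65% of S100a11 UMIs of the young CA library. In aged CA it held 69.3%, 30.2%, 58.0% and 34.1% of these genes, and in aged sham 22.4%, 8.81%, 10.4% and 5.58%, where T cells held 54.1%, 36.2%, 52.6% and 19.4%.

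S100a8 and S100a9 in monocytes were a matter of few cells in aged CA. S100a8 had 14412 UMIs in the 64 aged CA cells (8354 CPM), 23 in the 20 aged sham cells (62.6 CPM) and 298 in the 304 young CA cells (51.0 CPM). S100a9 had 7992, 2 and 21 UMIs. Of the 64 aged CA cells, 13 had at least 1% of their UMIs from the pair and held 91.5% of them. These 13 had a median of 14.7 neutrophil and 127.6 monocyte marker UMIs per 10000, against 3.77 and 72.5 in the other 51 cells, in which S100a8 stood at 1376 CPM and S100a9 at 109 CPM. Whether neutrophil RNA in these cells accounts for the pair was not tested.

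Border-associated macrophages, which live in the meninges and around vessels, had more S100a10 in CA than in sham at both ages over all gated cells. S100a10 stood at 95.2 CPM in aged CA (73.2 to 121.8), 21.1 in aged sham (11.5 to 35.4), 85.9 in young CA (65.6 to 110.6) and 19.1 in young sham (11.7 to 29.5), on 63, 14, 60 and 20 UMIs. The CA to sham ratio was 4.51-fold in aged (2.50 to 8.72) and 4.5-fold in young (2.67 to 7.88). An S100a10 UMI was seen in 41.8% of 67 aged CA cells, 13.6% of 81 aged sham cells, 28.6% of 77 young CA cells and 11.9% of 109 young sham cells, and the median depth lay between 7882 and 9308 UMIs in all 4. No cell held more than 16.7% of the S100a10 UMIs.

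The other genes in these macrophages rested on fewer UMIs. S100a6 stood at 49.9 CPM in aged CA, 6.03 in aged sham, 25.8 in young CA and 4.77 in young sham, with 42.4% of the aged CA UMIs from 1 cell. S100a11 stood at 48.4, 15.1, 31.5 and 24.8 CPM, with 71.9% of the aged CA UMIs from 1 cell. Anxa1 had 10 UMIs in aged CA, 1 in aged sham, 10 in young CA and 1 in young sham. In aged libraries 5 of 7 measured genes were at least 2-fold higher in CA (9.59% of all genes), and in young libraries 3 of 4 (S100a6, S100a10 and Anxa1; 3.81%). The aged 5 were S100a4 (24 UMIs, 83.3% from 1 cell, against 0), S100a6, S100a10, S100a11 and Anxa1. A gene counted as measured through either library. S100a6 and Anxa1 at both ages, and S100a4 in aged, met this only in CA, so their place in the counts partly follows from the rule.

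Markers of other cells moved with this class. Under the microglial gate were 63 of 67 aged CA, 27 of 81 aged sham, 49 of 77 young CA and 32 of 109 young sham cells. With only those cells, the log2 ratio of S100a10 in CA over sham was 2.58 in aged but 0.64 in young, where it was 2.11 over all gated cells, so the young difference was under 2-fold. Monocyte markers summed to 9.08 UMIs per 10000 in aged CA (7 of 10 genes seen; F10, Vcan and Ace at 0), 8.15 in aged sham (9 of 10; F10 at 0), 12.3 in young CA (8 of 10; F10 and Ace at 0) and 7.36 in young sham (6 of 10; Ly6c2, Plac8, Chil3 and F10 at 0). With cells classed by clusters, the aged log2 ratio of S100a10 was 0.72 and the young one 2.06.

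T cells also held S100a4, S100a6, S100a10 and S100a11, all lower in aged CA than in sham. S100a4 stood at 284 CPM in aged CA, 728 in aged sham and 640 in young sham T cells, and S100a10 at 312, 734 and 1077 CPM. S100a6 stood at 449, 1407 and 1056 CPM and S100a11 at 191, 412 and 505 CPM. Young CA had 18 T cells and is left out. These 4 of the 7 measured genes were at least 2-fold lower in aged CA than in aged sham, where 17.2% of all genes were. The ratios of CA to sham were 0.391 for S100a4, 0.319 for S100a6, 0.425 for S100a10 and 0.462 for S100a11. The markers of the T cell gate moved with them and summed to 25.7 UMIs per 10000 in the 97 aged CA cells and 51.3 in the 266 aged sham cells, with 10 of 10 genes seen in both. Under the microglial gate were 96 of 97 aged CA, 149 of 266 aged sham and 39 of 45 young sham T cells. Levels in those cells alone are not given. Median depth over all gated T cells was 8882, 4759 and 11619 UMIs in that order. S100a4 had a UMI in 30.9% of aged CA, 60.2% of aged sham and 53.3% of young sham T cells. Whether the kinds of T cell in the libraries account for it was not tested.

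**Figure D4:**
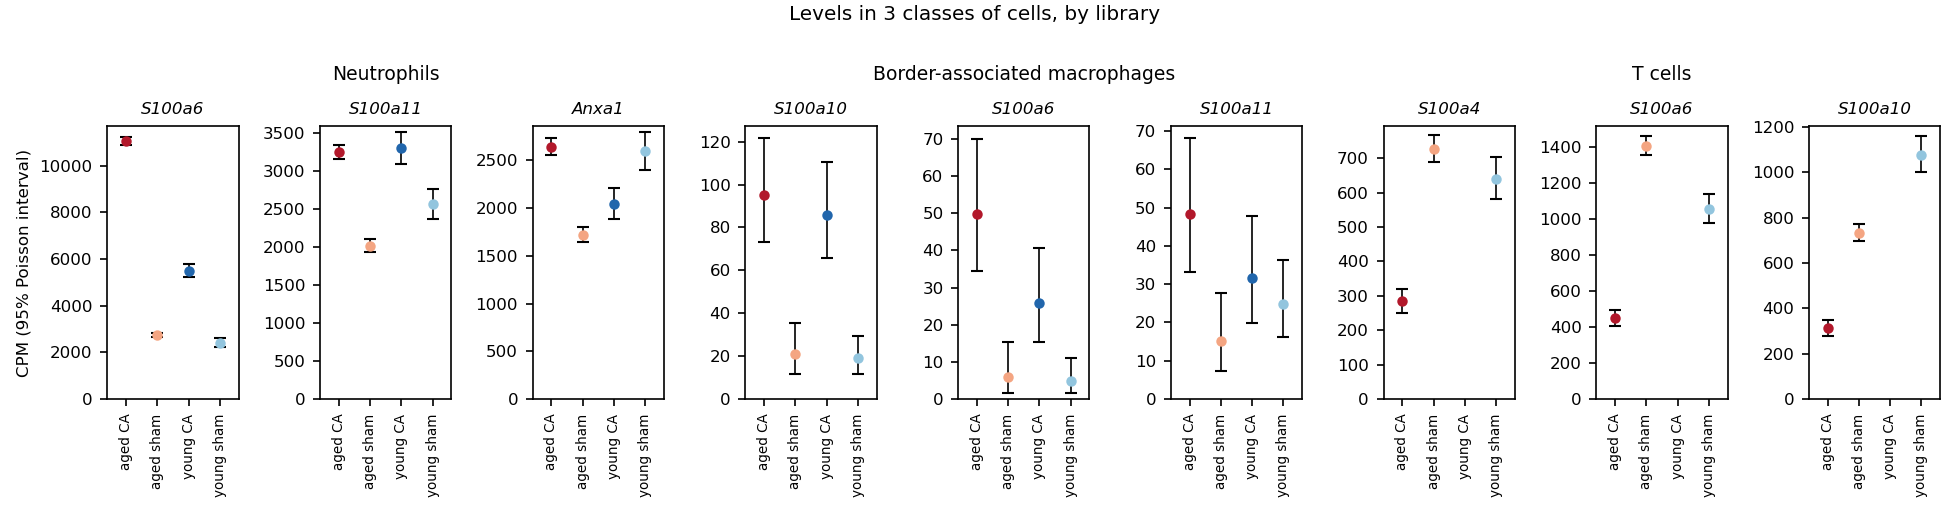
CPM (vertical axes, each starting at 0) of 3 genes each in neutrophils, border-associated macrophages and T cells, per library. Points are class sums and bars 95% Poisson intervals, which cover counting error only. Young CA T cells (18 cells) are not drawn. S100a6 in neutrophils and S100a10 in border-associated macrophages are higher in CA than in sham at both ages, and the T cell genes are lower in aged CA than in both sham libraries.

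In microglia, the bulk of the cells, all 7 genes were low. S100a8 stood at 23.4 CPM in aged CA, 41.6 in aged sham, 3.95 in young CA and 10.8 in young sham microglia. In neurons of the same libraries, which should lack it, it stood at 4.56, 79.6, 3.13 and 2.76 CPM. S100a9 stood at 13.9, 51.3, 4.26 and 11.8 CPM in microglia and at 4.95, 90.6, 2.74 and 3.82 CPM in neurons. In aged sham the neuron values rested on few cells. Of 868 aged sham neurons, 12 had at least 1% of their UMIs from the pair and held 69.3% of them, and 15 of 5045 aged sham microglia held 35.1%. Without such cells, S100a8 stood at 27.4 CPM in aged sham microglia and 23.2 in neurons, and S100a9 at 32.9 and 29.4 CPM, with intervals that overlapped. Only 204 of the 868 neurons were under the microglial gate, and in those S100a8 stood at 6.57 CPM and S100a9 at 9.86 CPM. These subsets were chosen after the data were seen. A single cell held 28.7% of the S100a8 UMIs of aged CA microglia. Median depth was 10627, 3779, 9303 and 5699 UMIs in microglia and 27249, 1998, 19864 and 18820 UMIs in neurons.

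Microglia stood above neurons, with intervals that did not overlap, for S100a8, S100a9, S100a4, S100a6 and S100a10 in aged CA, for S100a4 in young CA, and for S100a8, S100a9, S100a4, S100a10 and S100a11 in young sham. S100a10 stood at 6.24 CPM in aged CA microglia, 14.7 in aged sham, 13.5 in young CA and 8.21 in young sham, against 1.58, 14.8, 9.01 and 2.76 CPM in neurons. S100a4 stood at 6.04, 7.24, 5.82 and 2.64 CPM in microglia, against 0.594, 5.16 and 1.57 CPM in neurons of aged CA, aged sham and young CA. Young sham neurons had 0 UMIs of S100a4, where 3 UMIs would be 0.637 CPM, so a low level is possible. S100a6 stood at 5.63, 12.8, 3.63 and 1.86 CPM in microglia and at 2.18, 19.1, 3.53 and 0.850 CPM in neurons. S100a11 stood at 3.13, 10.7, 6.04 and 3.78 CPM in microglia and at 2.77, 12.6, 2.74 and 0.637 CPM in neurons. Anxa1 was at most 1.43 CPM in microglia, on 12 to 44 UMIs per library. In aged sham, S100a6 stood lower in microglia than in neurons, with intervals that did not overlap, and those of S100a4, S100a10, S100a11 and Anxa1 overlapped. The aged sham neurons compared here include those over the microglial gate, with a class median of 104.7 microglial marker UMIs per 10000.

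By size, no gene of the 7 was at least 2-fold higher in CA than in sham microglia on log2(CPM + 1), 0 of 6 measured in young (6.32% of all genes) and 0 of 7 in aged (5.56%). Without the added CPM the young ratios were 2.20 for S100a4 (1.83 to 2.66), 1.96 for S100a6 (1.57 to 2.46), 1.65 for S100a10 (1.48 to 1.84) and 1.60 for S100a11 (1.36 to 1.88), all higher in CA. Lower were 2 of 6 in young (S100a8 and S100a9; 2.80% of all genes) and 4 of 7 in aged (S100a9, S100a6, S100a10 and S100a11; 9.84%). Aged over young, 5 of 7 were higher and 0 lower in sham (3.44% and 0.180% of all genes), and 2 of 6 were higher (S100a8 and S100a9) and 1 lower (S100a10) after CA (2.44% and 3.37%). The 5 were S100a8, S100a9, S100a4, S100a6 and S100a11. These counts rest on levels of at most 51.3 CPM. In microglia, they and the gene lists below cover only cells over the microglial gate. The median of its markers was 114.6 UMIs per 10000 in aged CA against 223.2 in aged sham microglia. In young microglia it was 165.2 in CA against 263.9 in sham. Below all gates were 501 aged CA, 71 aged sham, 112 young CA and 55 young sham cells. Whether microglia with low markers lie among them, and would change the counts, was not tested. Neurons moved the same way in both comparisons with aged sham. Aged over young in sham, their ratios were 28.8 for S100a8, 23.7 for S100a9, 22.5 for S100a6 and 19.7 for S100a11. For aged CA over sham they were 0.0546 for S100a9, 0.114 for S100a6, 0.107 for S100a10 and 0.221 for S100a11. In young CA over sham, S100a8 in neurons was at 1.14 and S100a9 at 0.717. What neurons and microglia of a library share was not tested.

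**Figure D5:**
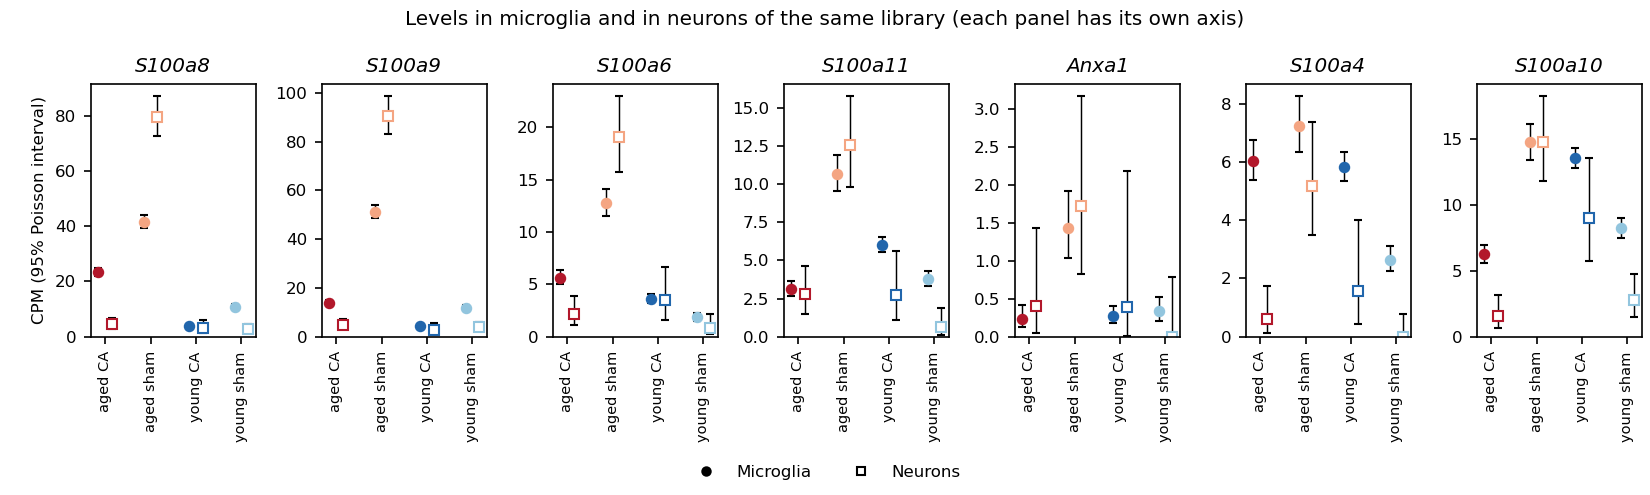
CPM of each gene (vertical axes, own scale per panel) in microglia (filled circles) and neurons (open squares) of the same library, with 95% Poisson intervals. Aged sham neurons are the highest points for S100a8 (79.6 CPM) and S100a9 (90.6 CPM), where 12 of 868 cells hold 69.3% of the pair's UMIs, and microglia stand above neurons for S100a4 in all 4 libraries, with overlapping intervals in aged sham.

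Some relatives of these genes were at least 2-fold higher in CA than in sham microglia on log2(CPM + 1). Over all genes at 10 CPM or more, 6.37% were in young and 6.05% in aged microglia. Other genes with S100 symbols numbered 11, among them S100pbp, which is named for binding an S100 protein and is not an S100 gene. Of these, 3 were at 10 CPM or more. S100a1 was 3.23-fold higher in young CA than young sham (17.6 against 5.45 CPM) and 1.64-fold in aged (19.9 against 12.1 CPM). S100a13 was 2.03-fold higher in young CA than young sham, just under 2-fold with 1 CPM added. The list counted 1 of 3 higher in young and 0 of 3 in aged, with a median log2 ratio of 0.99 and 0.24, beside -0.06 and 0.03 over all genes. Among 11 other annexins, 7 were measured, 2 higher in young and 1 in aged, with medians of 0.28 and 0.72. Anxa2, the partner of S100A10, stood at 10.1 CPM in young CA against 1.21 in young sham (8.32-fold, 6.51 to 10.8) and at 13.3 CPM in aged CA against 3.93 in aged sham (3.39-fold, 2.79 to 4.15). Anxa5, a binder of exposed phosphatidylserine, was 3.68-fold higher in young (55.9 against 15.2 CPM) and 2.03-fold in aged (55.2 against 27.2 CPM), just under 2-fold on the log2(CPM + 1) scale used for the counts.

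Genes whose proteins work with S100A10, S100A4 and S100A11 were 6 of 7 measured in microglia, with 2 higher in young CA than young sham, and 1 higher and 1 lower in aged (medians 0.33 and -0.19). Over all genes at 10 CPM or more, 6.37% were higher in young, and 6.05% higher and 8.51% lower in aged. Plaur, the urokinase receptor of the plasminogen system, stood at 66.9 CPM in young CA against 12.99 in young sham, and at 122.2 CPM in aged CA against 24.5 in aged sham. Plau, urokinase itself, stood at 15.6 CPM in young CA against 22.2 in young sham, and at 9.04 CPM in aged CA against 27.5 in aged sham. Tpm4, a tropomyosin, was 2.83-fold higher in young (49.5 against 17.5 CPM) and 1.90-fold in aged (40.6 against 21.3 CPM). Of the granule and alarm genes 1 of 12, the lysozyme gene Lyz2, was measured in microglia, 2.25-fold higher in young CA than young sham and 1.05-fold in aged.

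Known receptors of these proteins, and some relatives of the receptors, were looked at in the same way. Of 7 receptor genes for S100A8 and S100A9, 5 were measured in microglia and none was at least 2-fold higher or lower in CA on log2(CPM + 1) (medians -0.32 in young and -0.18 in aged). Over all genes at 10 CPM or more, 6.37% were higher and 2.64% lower in young, and 6.05% and 8.51% in aged. Given for its role and after its values were seen, Tlr4 stood at 58.8 CPM in aged CA, 100.5 in aged sham, 74.6 in young CA and 95.9 in young sham microglia, and its co-receptor gene Cd14 at 405, 217.7, 348 and 210.6 CPM. Ly96, the TLR4 partner MD-2, stood at 33.5, 67.2, 45.7 and 62.4 CPM. The 5 listed genes of the formyl peptide receptor family, some of which take up annexin A1 signals, reached 10 CPM in no microglial library. In neutrophils, where Anxa1 itself was highest, Fpr1, also chosen after its values were seen, stood at 315 CPM in aged CA, 133 in aged sham, 262 in young CA and 208 in young sham, and Fpr2 at 222, 179, 412 and 312 CPM.

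Anxa1 is known as a gene that glucocorticoids induce in other cells. In microglia 6 of 8 glucocorticoid response genes were at least 2-fold higher in young CA than young sham (6.37% of all genes at 10 CPM or more). In aged CA over aged sham 7 of 8 were (6.05%). The medians were 1.82 and 2.27 on the log2 scale. Fkbp5, a chaperone partner of the receptor, stood at 777 CPM in young CA against 205 in young sham, and at 827 CPM in aged CA against 109 in aged sham. Klf9, a transcription factor, was 18.8-fold higher in young and 29.1-fold in aged. Zbtb16, Ddit4, Dusp1 and Tsc22d3 were also at least 2-fold higher at both ages (ratios of 2.61 to 42.7 in young mice, and of 2.80 to 23.3 in aged mice), and Per1 in aged at 3.14-fold. Anxa1 in the same microglia was at 0.271 CPM in young CA against 0.333 in young sham and at 0.238 CPM in aged CA against 1.43 in aged sham. In neutrophils 7 of 8 of the list were higher in young CA (18.3% of all genes) and 6 of 8 in aged CA (6.23%), with Sgk1 at least 2-fold lower in aged CA (48.4 against 111.4 CPM). Anxa1 had the ratios given above there.

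Across 27 sums of a class in a library, the genes were ranked by likeness of pattern, as Pearson's r of log2(CPM + 1) over 19124 genes with at least 50 UMIs. These sums share libraries and cell types, so r is a description. S100a8 was most like Lcn2 (r = 0.971), the siderophore-binding lipocalin of neutrophils, then S100a9 (0.960) and Bmx (0.948), and S100a9 was most like S100a8, Il1f9 (0.959) and Gm20406 (0.947). S100a6 was most like Anxa2 (0.951), Glipr2 (0.923) and Ltb4r1 (0.915), and S100a11 most like Cd44 (0.963), the hyaluronan receptor, Plp2 (0.946) and Cnn2 (0.938). Anxa1 was most like S100a11 (0.930), Flna (0.930) and Gm31814 (0.918). S100a4 was most like Cd7 (0.881), a surface protein of lymphocytes, Gm9844 (0.837) and Anxa2 (0.823), and S100a10 most like Crip1 (0.935), Itgb7 (0.902) and Eif3h (0.885). Between members, r was lowest for S100a9 with S100a10 (-0.25) and S100a8 with S100a10 (-0.21).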

How the data were processed

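Brain CD45+ cells of 4 libraries, each a pool of 3 mice, were sequenced. Per the submitters' processing notes, Cell Ranger 7.1.0 and mm10 were used. Settings for annotation and cell calling are not given in the sources used here. The deposited values are raw UMI counts per gene and cell. Libraries held 70924569 (aged CA), 44277472 (aged sham), 115892682 (young CA) and 72648041 (young sham) UMIs in 6794, 7700, 10794 and 9038 barcodes.

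Cells with at least 500 UMIs and 200 genes and at most 10% mitochondrial UMIs were kept. The automatic doublet threshold of scanpy's scrublet (scanpy 1.11.5) marked at most 1 barcode per library, so the highest-scoring barcodes were removed at 0.8% per 1000 cells. Cells were classed by summed marker UMIs per 10000 (microglia 50, neutrophils 30, monocytes or macrophages 25, border-associated macrophages 20, T cells 10, B cells 15, neurons 20), with at least 3 markers and a lead of 2-fold where several gates passed. Cells over the microglial gate were not classed as monocytes. Gate levels were set after marker levels were seen. No member was a marker of these gates. Counts were summed per class and library, given as CPM with 95% Poisson intervals, exact binomial intervals for shares, for classes of at least 20 cells. Ratios counted as 2-fold or more are on log2(CPM + 1). Code was tested on simulated data. Python 3.11.15, numpy 2.4.6, scipy 1.17.1 and, for TMM factors, edgeR 4.0.16 in R 4.3.3 were used.

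The 7 genes, the gene lists and the tests were chosen with earlier results of these data known. The genes named from lists were those at least 2-fold different in microglia in either CA comparison and, for likeness, the 3 nearest genes, unless the text says otherwise.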

Additional observations from a re-analysis of the deposited data

Results flagged for a closer look

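In 3 cases the CA to sham ratio of a gene was at least 1.5-fold in opposite directions in young and aged mice. Smaller opposite ratios are not listed. With 1 library per group the difference was not tested. In microglia, the log2 ratio of S100a6 was -1.05 in aged and 0.70 in young mice, and that of S100a10 was -1.12 in aged and 0.66 in young mice. Both were at or below the level of neurons in aged sham (12.8 CPM in microglia against 19.1 CPM in neurons for S100a6, and 14.7 against 14.8 CPM for S100a10). Only 204 of those 868 neurons were under the microglial gate, and levels of these genes in them alone are not given. In neutrophils, the log2 ratio of S100a4 was -1.20 in aged and 4.19 in young mice, on 22 UMIs in aged CA against 40 in aged sham and 27 in young CA, all in 1 cell, against 1 in young sham.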

How the results depend on the processing

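No paired analysis was possible because the labels give no replicate numbers and each group was 1 library. Of 40 ratios of 2-fold or more in the classes described, all 40 kept their sign with a 20% mitochondrial limit, with doublets kept, with 10 CPM added in place of 1 and with TMM scaling, and 39, 36, 29 and 38 stayed at 2-fold or more. Other settings reversed some. With a stricter gate, described below, 9 of the 14 ratios left kept their sign and 3 stayed at 2-fold or more. With Leiden clusters 30 of 32 kept their sign and 24 stayed. As a mean over cells 39 of 40 kept their sign and 35 stayed. The neutrophil share of S100a8 and S100a9 was 92.69% in aged CA with a 20% mitochondrial limit, 97.04% in aged sham and 98.17% in young sham with at least 1000 UMIs per cell, and 96.81% in aged sham, 97.04% in young CA and 97.86% in young sham with doublets kept. With cells classed by Leiden clusters it was 92.75% in aged CA, 95.71% in aged sham and 94.84% in young CA. With only cells under the microglial gate, an alternative added after the data were seen, it was 86.36% in aged CA, 60.90% in aged sham, 97.86% in young CA and 97.84% in young sham, since those cells leave the class. The number of the 7 genes higher in microglia was, for CA over sham in young, 1 with doublets kept, 1 with TMM scaling, 1 as a mean over cells and 2 with a stricter gate, against 0. The stricter gate, which takes no cell with a marker of another class, gave 1 for CA over sham in aged (against 0), 2 for aged over young in sham (against 5) and 0 after CA (against 2), and left 66 aged CA, 169 aged sham, 87 young CA and 240 young sham microglia and no neutrophil. Adding 10 CPM gave 2 and 1 for the last 2 comparisons, and keeping doublets gave 1 for the last. With the stricter gate the log2 ratio of CA over sham in aged microglia was 0.10 for S100a10 and 3.18 for S100a11, that of aged over young in sham was -0.51 for S100a9 and -3.31 for S100a11, and that of aged over young after CA was -0.64 for S100a8. With Leiden clusters the log2 ratio of S100a4 in aged over young CA neutrophils was 4.04, and that of Anxa1 in border-associated macrophages for aged CA over sham was -0.45. As a mean over cells, S100a10 in aged over young sham neutrophils was -0.28. Why these changed was not tested. TMM scaling moved the median log2 ratio of all genes by 0.34 in aged neutrophils, 0.30 in aged monocytes and 0.17 in young microglia (CA over sham), and S100a6 in aged neutrophils was 2.36 with it, against 2.02. Genes with few UMIs, such as Anxa1 in microglia, are limited by depth.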

Other observations

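B cells carried S100a10 and S100a11 in all 4 libraries. S100a10 stood at 139.8 CPM in aged CA, 223.8 in aged sham, 312.4 in young CA and 224.4 in young sham B cells, on 39, 117, 47 and 38 UMIs from 34, 72, 21 and 21 cells. S100a11 stood at 93.2, 189.3, 166.2 and 218.5 CPM in the same order. Under the microglial gate were 33 of 34 aged CA, 38 of 72 aged sham, 17 of 21 young CA and 18 of 21 young sham B cells. S100a6 stood at 57.4 CPM in aged CA (16 UMIs) and 120.5 in aged sham (63 UMIs), with 0 UMIs in both young libraries. S100a4 had 2 UMIs in aged CA, 4 in aged sham and 0 in both young libraries, while T cells of aged sham held 1334. The 0 UMIs from 21 young cells each leave room for a low level.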
